A study of Homo sapiens with 4 samples.

Results

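HSC-5 is an established line of human cutaneous squamous cell carcinoma, and p63 binding in it was mapped by chromatin immunoprecipitation and sequencing (ChIP-seq). The 38 genes described here encode transcription factors and related regulators of epithelial identity, out of 20037 protein-coding genes in the RefSeq table of GRCh38. They were listed by name, with earlier results of these data known, so their shares with a peak are descriptions. Each was given every p63 peak of replicate 1 whose summit lay in the gene span or within 100 kb of it. The series holds 2 p63 immunoprecipitates (IPs), made with an antibody to p63 from HSC-5 chromatin crosslinked in 1% formaldehyde for 12 min, and 2 inputs from the same line. There was no treatment and no second genotype. The cells are from 1 tumour line, and the labels do not say whether replicates were separate cultures. Input files were not used here.

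p63, a relative of p53, is needed to form the epidermis and to keep its basal cells proliferative. It works largely through distal enhancers and through other transcription factors, some of which drive differentiation (ZNF750, GRHL3, KLF4), while others hold the basal state or an epithelial character (BNC1, the TFAP2 factors, OVOL factors). ChIP-seq shows where p63 was bound on chromatin, and gives no expression level of the genes nearby.

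Replicate 1 had 12687447 IP tags after removal of duplicates, and 4077 peaks, of which 3994 lay on chromosomes 1 to 22, X and Y. A peak is an interval that the authors' caller (MACS, p cut-off 1e-05) found above its control. Its tags are whole reads kept in it, and its fold is the authors' ratio of IP to local control. The lowest tag number in the list was 8, so weaker binding is not listed. Replicate 2 had 868393 tags, 6.84% of that depth, and its 2934 peaks appear to be numbered on another build. They were therefore not placed on genes, and were compared with replicate 1 only by the spacing of summits. The 95% Poisson intervals given for tags cover counting error only. No replicate spread exists for any single peak placed here, and no test between peaks or genes was made.

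Of the 38 factors, 21 (55.3%) had at least 1 p63 peak in or within 100 kb of the gene, beside 29.9% of all protein-coding genes. They held 28 distinct peaks in all. For 8 factors (21.1%) there were 2 or more, beside 7.88% of all protein-coding genes: OVOL1, SOX9, MAF, CEBPA, CEBPG, TRIM29, BHLHE40 and MYC. MAF had 3 peaks and the other 7 had 2. A further 13 had 1 peak: ZNF750, GRHL2, GRHL3, KLF6, TFAP2A, SOX15, PITX1, TBX3, PRDM1, SATB1, EHF, ELF3 and GATA3. The remaining 17 had none.

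Most of the 28 peaks lay outside the genes, in windows that add 100 kb on each side of a median span of 22.8 kb. A summit lay inside the span for 6 factors (15.8%), beside 7.10% of all protein-coding genes, and 7 of the 28 peaks were inside. Among genes with a peak in the window, a summit lay inside for 6 of 21 factors and for 1422 of 5993 protein-coding genes. Of the 21 flanking peaks, 3 lay within 10 kb, 6 between 10 and 50 kb and 12 between 50 and 100 kb. This split by distance was not counted for peaks near all genes. The window reaches other genes: for 5 of the 28 peaks another protein-coding gene was nearer than any listed factor, and the ZNF750 peak lay in 2 overlapping genes at once. Peaks of OVOL1, SOX15, CEBPG and GATA3 were all nearer to another gene.

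**Figure D1:**
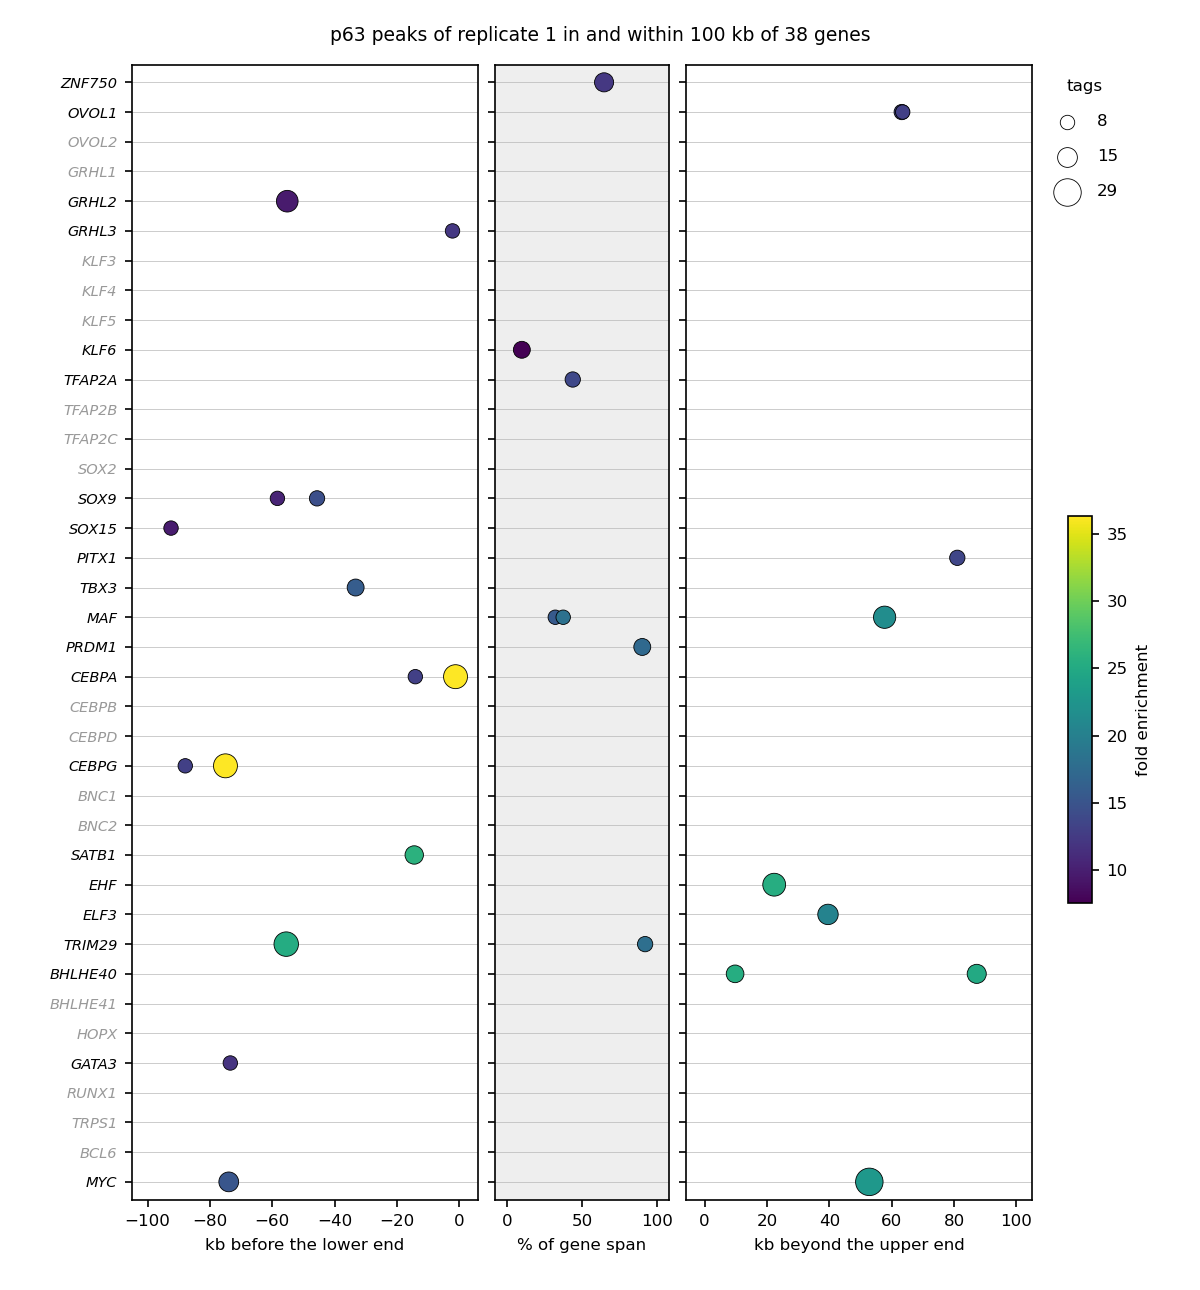
Position of each replicate 1 peak relative to the 38 genes. The left and right panels give the distance of the summit from the lower and the upper end of the gene span in kb, in the numbering of the chromosome, and the grey panel its place within the span in percent. Point area follows the tags and colour the authors' fold enrichment; names in grey had no peak. Most points lie in the outer panels, and the largest, with 29 tags, lies 52.838 kb beyond MYC.

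PRDM1 was the factor with a summit within 1 kb of a listed start, 1 of the 25 factors with starts in the RefSeq start table, beside 0.770% of protein-coding genes there. PRDM1 encodes BLIMP1, a repressor that acts in terminal differentiation of lymphocytes and of epidermal cells. Its peak, at chromosome 6, 106098476 to 106098721, had 11 tags (5.49 to 19.7), a fold of 17.33 and a width of 246 bp. The summit lay inside the gene, 298 bp before the second of 2 listed starts. It was 12307 bp downstream of the first, so the peak stood at the internal start. The window around that start, 250 bases before to 50 after it, is shown because it is the promoter of the list that a peak reaches. It is chr6:106098691-106098990 on the plus strand, from RefSeq (GRCh38.p14), with the 31 bases that lie in the peak in capitals.
PRDM1 internal start: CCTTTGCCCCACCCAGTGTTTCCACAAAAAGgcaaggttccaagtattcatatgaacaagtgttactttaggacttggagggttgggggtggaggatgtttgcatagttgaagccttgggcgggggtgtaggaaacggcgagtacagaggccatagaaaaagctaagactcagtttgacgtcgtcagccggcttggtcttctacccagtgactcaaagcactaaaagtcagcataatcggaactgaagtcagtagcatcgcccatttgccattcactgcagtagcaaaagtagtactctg
Most of the peak, with its summit, lies before this window, and those bases were not used here. The cores of a p53-family site were searched on both strands as CNNGNNNNNNCNNG, with A or T at each N inside a core. No match is in this window, which leaves out the summit, so a site there could not be seen. Among 43 start windows of the listed factors 1 (2.33%) held a match, at BCL6, which had no peak, beside 886 of 22199 start windows of protein-coding genes (3.99%).

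C/EBP factors bind CCAAT-like sequences, and CEBPA and CEBPB act in the commitment of basal keratinocytes to the spinous layer. CEBPA had the peak of highest fold near any listed factor, at chromosome 19, 33298573 to 33298898. It had 22 tags (13.8 to 33.3), a fold of 36.33, a width of 326 bp and rank 175 of 4077 by score, and its summit lay 1.255 kb beyond the gene, on the downstream side. A weaker CEBPA peak (33285690 to 33285925) lay 14.146 kb out, 12.891 kb from the first, with 8 tags (3.45 to 15.8) and a fold of 12.98. Both peaks also fall in the window of CEBPG, a dimer partner of other C/EBP proteins that lies on the same stretch of chromosome 19, at 75.03 and 87.921 kb. They were counted once, and both are nearer to CEBPA. CEBPB had no peak within 100 kb. The summit nearest to CEBPB lay 179.568 kb away, in a peak of 52 tags and fold 32.9, which was the largest tag number among the nearest peaks of the 17 factors without one. CEBPD had none within 578.209 kb.

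The ETS factors EHF and ELF3 are expressed in epithelia and control differentiation genes there, and both had a peak on the downstream side. The EHF peak, at chromosome 11, 34685539 to 34685787, had 20 tags (12.2 to 30.9) in 249 bp, a fold of 25.53 and rank 281, and lay 22.332 kb beyond the gene. At ELF3 a peak of 16 tags (9.15 to 26), fold 20.42 and width 303 bp lay 39.58 kb beyond the gene, at chromosome 1, 202056667 to 202056969. Its rank was 685. The ELF3 peak was the 1 peak of the 28 (3.57%) paired by spacing with a replicate 2 peak, which had 5 tags, a fold of 144.61 and a width of 182 bp. Folds of the lists rest on different depths and controls and cannot be compared. Over all replicate 1 peaks under 1 kb wide, 5.42% were paired. The ELF3 pairing was lost at a tolerance of 50 bp, where 0 of the 28 were paired.

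GRHL factors, the mammalian grainyhead proteins, maintain junctions and barrier genes of epithelia. GRHL2 had a peak of 18 tags (10.7 to 28.4) and a fold of 9.66 in 285 bp, 55.214 kb before the gene in chromosome numbering (chromosome 8, 101437109 to 101437393). The GRHL3 peak was weaker in tags but closer: 8 tags (3.45 to 15.8), fold 12.26 and 219 bp, with its summit 2.223 kb upstream of the first start (chromosome 1, 24317057 to 24317275). Their tag intervals overlap. GRHL1 had none within 100 kb, and its nearest summit lay 150.36 kb away with 17 tags.

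OVOL1 and OVOL2 are zinc finger repressors that restrain mesenchymal genes. OVOL1 had 2 peaks of 9 and 8 tags, 63.227 and 63.54 kb beyond the gene, with folds of 13.51 and 12.98. Their summits are 0.313 kb apart with a gap of 152 bp between the intervals, and both lie inside MUS81, a gene of DNA repair. They are the closest pair of the list. OVOL2 had no summit within 517.554 kb. ZNF750, a zinc finger factor of epidermal differentiation downstream of p63, held a peak inside its span at chromosome 17, 82836173 to 82836445. It had 14 tags (7.65 to 23.5), a fold of 12.25 and rank 1255. ZNF750 lies within the tubulin cofactor gene TBCD, so the peak is in both spans.

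Of the KLF zinc finger factors, KLF4 acts in barrier formation and KLF5 in proliferating epithelium, and neither had a peak within 100 kb. KLF6 held the 1 peak of the family, of 11 tags (5.49 to 19.7) in 293 bp at chromosome 10, 3776783 to 3777075. This KLF6 peak had the lowest fold near any listed factor, 7.56, with rank 3855, and lay 8321 bp downstream of the start of a gene of 9.214 kb. The nearest summits lay 209.65 kb from KLF5, 245.07 kb from KLF4 and 1813.395 kb from KLF3, with 14, 17 and 12 tags.

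The TFAP2 (AP-2) factors act early in the ectoderm and open keratinocyte enhancers. TFAP2A held a peak of 9 tags (4.12 to 17.1), fold 13.81 and 181 bp inside its span, 5648 bp downstream of the nearer of its 2 listed starts (chromosome 6, 10406667 to 10406847). TFAP2C had its nearest summit at 169.681 kb, with 13 tags, and TFAP2B at 234.812 kb, with 9 tags. Of the SOX factors, SOX9, which marks hair follicle stem cells, had 2 flanking peaks of 9 and 8 tags at 45.661 and 58.368 kb. SOX15 had 1 peak of 8 tags at 92.485 kb, the summit closest to the 100 kb limit, inside the RNA polymerase II gene POLR2A. SOX2, a squamous lineage factor, had none within 148.398 kb. All peaks near the listed SOX factors had folds between 9.72 and 14.52.

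MAF, which acts in keratinocyte differentiation, had the most peaks of the list. Its RefSeq span is 398.116 kb, the longest among factors with a peak. Inside it lay 2 peaks of 8 tags each, with folds of 18.17 and 15.57 and summits 21.062 kb apart, 249132 and 270194 bp downstream of the listed start. The strongest MAF peak lay 57.739 kb upstream, at chromosome 16, 79658255 to 79658667, with 19 tags (11.4 to 29.7), a fold of 21.5 and rank 411. At 413 bp it was the widest of the 28.

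MYC, the growth factor-responsive regulator of proliferation, was flanked on both sides and had the most tags of any listed gene. The peak at chromosome 8, 127795655 to 127796001, had 29 tags (19.4 to 41.6) in 347 bp, a fold of 22.93 and rank 160, and lay 52.838 kb beyond the gene. A MYC peak on the other side, at 127661377 to 127661616, had 15 tags (8.4 to 24.7), a fold of 15.28 and rank 799, and lay 73.976 kb out. The next protein-coding gene, POU5F1B, lay 378.565 kb from the first summit and 244.234 kb from the second.

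TRIM29, a tripartite motif protein of squamous epithelia, had 1 peak inside and 1 outside. The outer TRIM29 peak lay 55.546 kb before the gene in chromosome numbering (chromosome 11, 120055520 to 120055887). This outer peak had 23 tags (14.6 to 34.5), a fold of 25.28 and rank 251. The inner had 9 tags (4.12 to 17.1), a fold of 17.97 and 165 bp, the narrowest of the 28. BHLHE40, a repressor linked to stress and the circadian clock, had peaks of 12 and 14 tags at 9.79 and 87.275 kb on its downstream side, with folds of 25.32 and 24.96. Their tag intervals, 6.2 to 21.0 and 7.65 to 23.5, overlap. The paralog BHLHE41 had no summit within 203.107 kb.

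Among the single factors, SATB1, an organiser of chromatin loops that is a p63 target in mouse epidermis, had a peak of 13 tags (6.92 to 22.2). It lay 14.497 kb beyond the downstream end of the gene, with a fold of 25.95 and rank 578 (chromosome 3, 18330707 to 18330952). TBX3, a T-box factor of limb and mammary gland, had 11 tags at 33.288 kb with a fold of 15.88. PITX1, a homeobox factor of hindlimb and oral epithelium, had 9 tags at 81.047 kb with a fold of 13.61. The GATA3 peak had 8 tags and a fold of 11.84 at 73.474 kb, inside TAF3. Among the 17 factors without a peak, the summit nearest to RUNX1 lay just outside the window, at 112.393 kb, with 14 tags and a fold of 28.55. The basonuclins BNC1 and BNC2, the homeodomain protein HOPX, the repressor BCL6 and the GATA-type repressor TRPS1 were farther, at 231.035, 2671.113, 2655.997, 1034.95 and 488.875 kb. In all, 10 of the 17 had a summit within 250 kb and 4 had none within 1 Mb. With those 10, 31 of the 38 factors (81.6%) had a summit within 250 kb, beside 51.4% of all protein-coding genes. Shares among all genes without a peak within 100 kb, and at 1 Mb, were not computed.

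Peaks near the listed factors were moderate within the list. Their median was 11 tags (range 8 to 29), against 10 in the 3966 other peaks on chromosomes. The median fold was 15.43 (range 7.56 to 36.33), against 13.33, and the median width 246 bp, against 245 bp. A score of 100 or more was held by 7 of the 28 (25%), against 15.5% of the other peaks. At least 20 tags were held by 4 (14.3%), against 18.0%. None of the 28 was 1 kb or wider, against 119 of the 3966 other peaks. Those 119 include the peaks of highest tag number. The 7 inside peaks had 8 to 14 tags and a median fold of 15.57, and the 21 flanking peaks 8 to 29 tags and a median fold of 15.28. Flanking peaks made up 21 of the 28, and all 4 peaks of 20 or more tags, near MYC, TRIM29, CEBPA and EHF, were among them. A peak of 20 or more tags lay within 100 kb of 5 factors (13.2%), CEBPG included, beside 4.92% of all protein-coding genes.

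**Figure D2:**
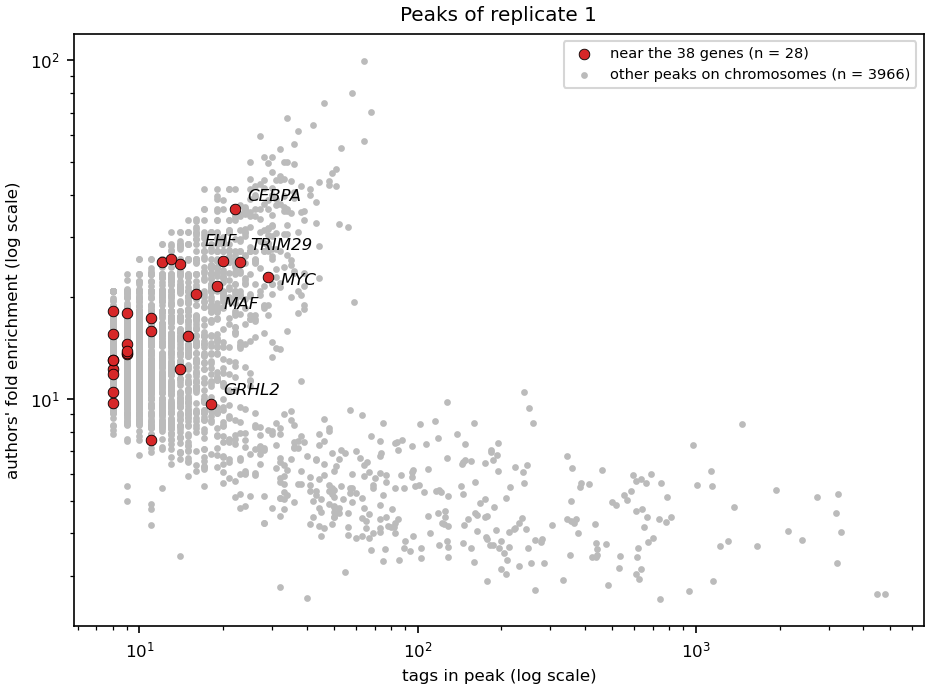
Tags (x axis, log scale) against the authors' fold enrichment (y axis, log scale) of replicate 1 peaks. Red points are the 28 peaks near the listed factors and grey points the 3966 other peaks on chromosomes, and the 6 red peaks with most tags carry the gene's name. The red points stay at 29 tags or fewer, and the CEBPA peak is highest at a fold of 36.33.

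By family, a peak within 100 kb was found for both listed ETS factors, 2 of 3 GRHL, 2 of 3 SOX, 2 of 4 C/EBP, 1 of 2 OVOL, 1 of 3 TFAP2, 1 of 4 KLF, 1 of 2 BHLHE4 and 0 of 2 BNC factors. These are 12 of 25 (48.0%). No other genes were listed for BHLHE4 and BNC, so the next share leaves those families out. Of the other genes of the remaining families, 13 of 63 (20.6%) had a peak, beside 29.9% of all protein-coding genes. They were 9 of 25 ETS genes, 2 of 14 KLF genes, 2 of 16 SOX genes and 0 of the 8 relatives of GRHL, OVOL, TFAP2 and C/EBP. Among them, ETV5 held a peak of 26 tags inside its span (fold 27.23), and KLF12 had one of 26 tags at 8.594 kb (fold 36.45), both above the highest tag number in the listed members of their families. Families are small, and no difference between them was tested.

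**Figure D3:**
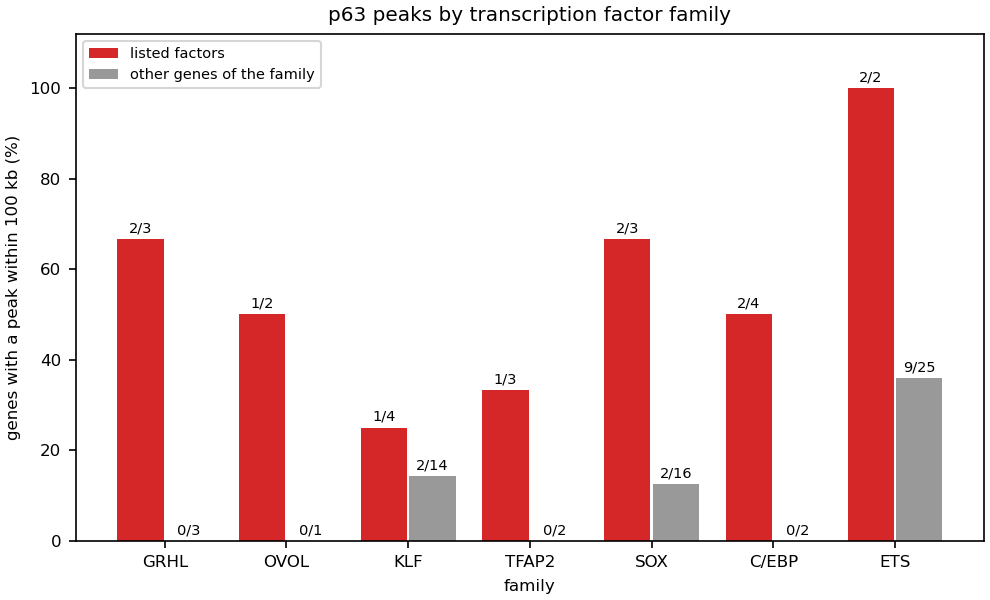
Share of genes with a replicate 1 peak in the span or within 100 kb, by transcription factor family, in percent. Red bars are the listed factors and grey bars the other genes of the family, with the number having a peak and the number of genes above each bar. Both listed ETS factors and 1 of 4 KLF factors had a peak.

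The share of listed factors with a peak was above that of all protein-coding genes at each window width. It was 15.8% in the span alone, 23.7% within 10 kb, 36.8% within 50 kb and 81.6% within 250 kb, beside 7.10%, 10.2%, 19.8% and 51.4%. Factors with 2 or more peaks numbered 1 in the span alone, 1 within 10 kb, 2 within 50 kb and 19 within 250 kb, beside 1.11%, 1.47%, 3.71% and 22.7% of all protein-coding genes. From peaks with a score of 100 or more, 8 of the 38 factors had a peak within 100 kb, beside 7.42%, with 0 having several (beside 0.564%) and 0 a peak inside (beside 1.47%). From peaks of 10 or more tags, 2 had several, beside 3.46%, and 3 had one inside, beside 4.03%. When each peak went to its nearest gene, 5 factors had several, beside 1.98%. Another 34 regulators of keratinocytes, among them TP63, TP73 and NOTCH1, gave 17 with a peak within 100 kb (50.0%). For several peaks the shares were 21.1% of the listed factors and 26.5% of those regulators, for a peak of 20 or more tags 13.2% and 17.6%, and for a peak in the span 15.8% and 17.6%. By their strongest peak near the gene, TP63 had 38 tags (26.9 to 52.2) and TP73 20 tags (12.2 to 30.9), both inside the span. Among 30 factors of other lineages, such as MYOD1 in muscle and HNF4A in liver, 9 had one (30.0%), and 1 of 30 had one within 10 kb. The listed factors had a median of 5.5 other protein-coding genes within 500 kb, against 6 for the other keratinocyte regulators, 7 for the factors of other lineages and 13 for all protein-coding genes. Their median span was 22.8 kb, against 37.2 kb, 19.9 kb and 24.1 kb for the same 3 groups. The part of gene density in the shares was not tested.

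**Figure D4:**
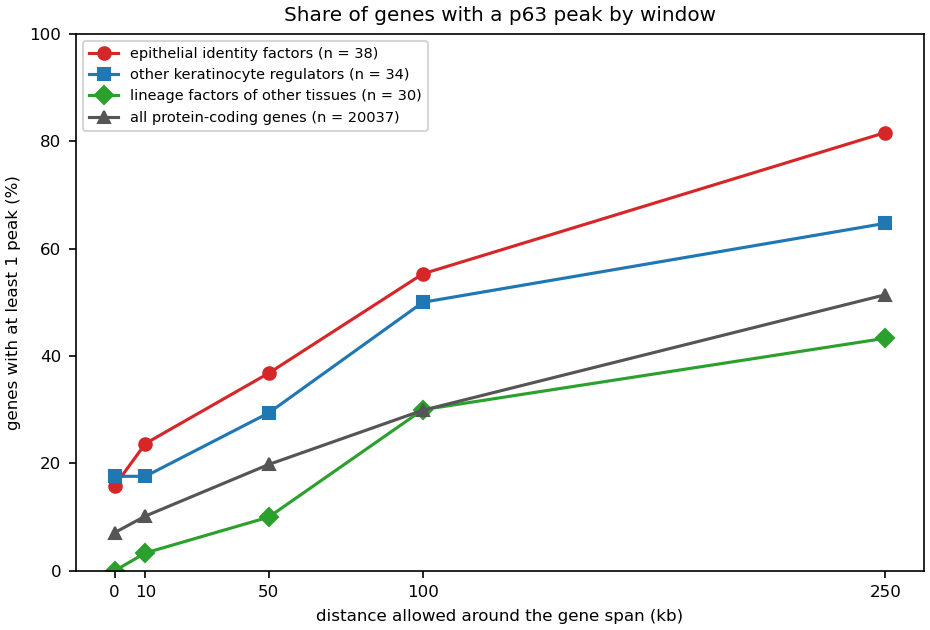
Percent of genes with at least 1 replicate 1 peak (y axis) against the distance allowed around the gene span in kb (x axis). Lines stand for the 38 epithelial identity factors, 34 other keratinocyte regulators, 30 lineage factors of other tissues and all 20037 protein-coding genes. At 100 kb they stand at 55.3%, 50.0%, 30.0% and 29.9%.

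The 8 factors with 2 or more peaks had a median span of 8.25 kb (range 2.601 to 398.116 kb), the 13 with 1 peak 23 kb, and the 17 with none 28.8 kb (range 1.252 to 461.168 kb). Their ranges overlap almost entirely. Median numbers of other protein-coding genes within 500 kb were 4.5, 7 and 5. At the starts in the RefSeq start table, the median GC content was 73.2% for 4 factors with several peaks, 59.8% for 9 with 1 and 69.2% for 12 with none, again with overlapping ranges. Of the 8, CEBPA and CEBPG share the same peaks.

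**Figure D5:**
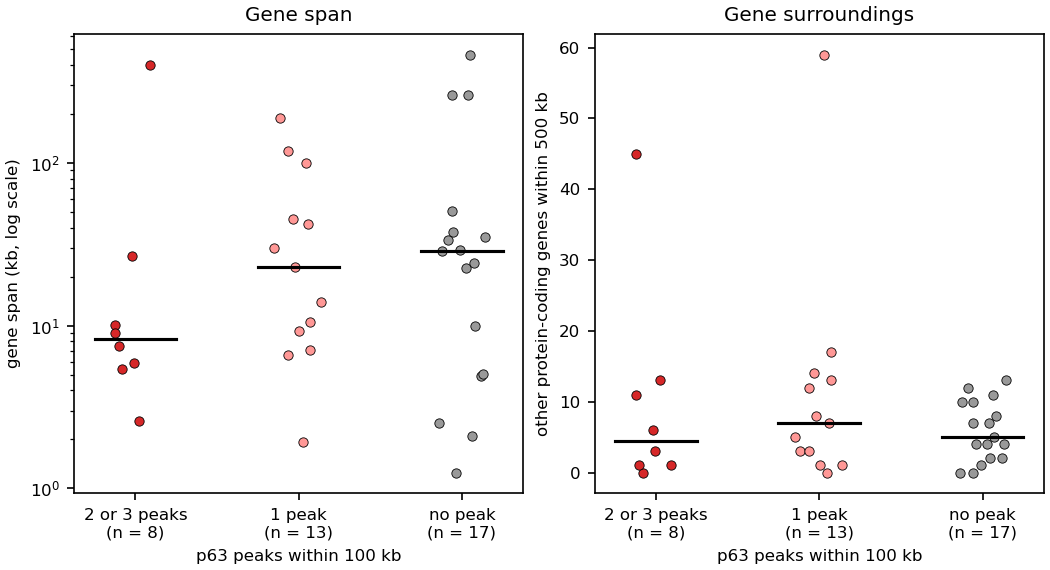
Gene span in kb (left, log scale) and number of other protein-coding genes within 500 kb (right) for the listed factors with 2 or 3, 1 or no replicate 1 peaks within 100 kb. Each point is a gene and the black line is the median. The groups overlap in both measures, with median spans of 8.25, 23 and 28.8 kb.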

How the data were processed

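The authors called peaks on each IP separately, each against 1 control, using MACS 1.4.2 and 1 tag per position (per the file headers). The controls differed, with 28327222 tags kept for replicate 1 and 13175270 for replicate 2. Upstream tools named in the submitters' processing notes are FastQC, Trimmomatic and Bowtie. The deposited tag counts are whole and not normalised. Per the file headers, the score column is the −log10 of the MACS p-value multiplied by 10, the fold enrichment is the authors' ratio of IP to scaled local control, and the false discovery rate is in percent. Widths and summit offsets are in bp.

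The processing notes name hg19. Replicate 1 was read as GRCh38, because 64 of its 83 contig peaks lie on contigs whose names occur first in that build. Replicate 2 was matched by spacing, with a tolerance of 100 bp, 2 supporting pairs within 10 Mb and widths under 1 kb, which gave 210 pairs, 199 of them offset by over 1 kb. Gene spans and starts came from RefSeq (GRCh38.p14). The gene table gives no exons, so exonic and intronic sites were not told apart.

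The members, gene lists and windows were chosen with earlier results of these data known. Every member is accounted for. Peaks are given one by one where a peak lay inside the gene, a gene had 2 or more or a peak had 20 or more tags, and otherwise by the strongest. Genes of other lists are named where a peak of 20 or more tags lay within 10 kb. Members of lists named as examples were chosen for being well known. Counts were set beside all protein-coding genes without a test. Python 3.11.15, pandas 2.3.3 and scipy 1.17.1 were used.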

Additional observations from a re-analysis of the deposited data

How the results depend on the processing

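The 3 kb width limit and the 10 and 50 kb windows of the comparison lists were chosen after seeing the data. The main counts were 21 factors with a peak, 28 peaks, 8 factors with several and 6 with a peak inside, and the medians 11 tags, a fold of 15.43 and 246 bp. With the gene span alone they were 6 factors, 7 peaks, 1 with several and a median width of 210 bp. Within 10 kb they were 9, 10, 1 and 214.5 bp. Within 50 kb there were 16 peaks and 2 factors with several, and within 250 kb 53 peaks and 19 with several. At a score of 100 or more, 8 of 38 factors and 7 peaks were left, with 0 having several and 0 inside, and medians of 20 tags, a fold of 25.32 and 326 bp. At 10 or more tags there were 14 of 38 factors with a peak, 15 peaks, 2 factors with several and 3 with one inside. The medians were then 15 tags, a fold of 21.5 and 293 bp. At a fold of 10 or more there were 18 factors, 25 peaks, 8 with several and 5 with one inside. By nearest gene, 17 factors had a peak, from 23 peaks, and 5 factors had several. The share of all protein-coding genes with a peak was not computed for these tag, fold and nearest gene settings. From peaks paired with replicate 2 alone, 1 factor and 1 peak were left, with 0 having several and 0 inside, 16 tags and 303 bp. At a 50 bp tolerance 0 peaks near factors were paired. Other keratinocyte regulators with a peak numbered 6 within 10 kb and 10 within 50 kb, and lineage factors 1 and 3. Smaller counts under narrower windows or stricter limits follow from the construction. A false discovery rate limit of 1% and the 1 kb width limit could not change these 7 main values. The highest rate in the replicate 1 list was 0.18%, and none of the 28 peaks was 1 kb or wider. For the same reason the 3 kb limit, run for factors with a peak, left 21. The third sheet of replicate 1, named as sorted by chromosome, gave the same 7 values.

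No paired analysis was possible because peaks of only 1 replicate were placed on genes. Without replicate 1 no value is left, and without replicate 2 no value but the pairing changes. Replicate 2 had 868393 tags, so an unpaired peak is not shown to be absent there.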
